A study of Rattus norvegicus with 12 samples.

Results

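The interleukin genes and interleukin receptor genes measured here were all genes whose symbol on the array is Il followed by a number, with Il7r left out. They came to 50 of 14217 genes with a symbol of their own, and each was represented by its brightest probe set. By role they comprised 23 ligands, 21 receptor chains and 6 inhibitors or decoy receptors. Il13ra1 is not among them because both of its probe sets carry several symbols, and it is given no value. Messenger RNA was measured in mesenteric lymph nodes of Wistar rat pups at day 21, on 1 Affymetrix Rat Genome 230 2.0 array for each of 3 pups in each of 4 groups. The groups differed in their supply of conjugated linoleic acid (CLA), a group of linoleic acid isomers with conjugated double bonds, given as a mix of 80% c9,t11 and 20% t10,c12. Dams of group A ate a 1% CLA diet for the last 2 weeks of gestation and the 3 weeks of suckling, so that CLA reached the pups through milk. Dams of group B ate that diet in gestation alone and the pups were gavaged daily with CLA during suckling. Group C pups were gavaged with CLA for the same 3 weeks, but their dams had standard food. Group D, the reference, had standard food throughout and no CLA. No gavage without CLA is described in the sources used here, so gavage itself and its CLA cannot be told apart in groups B and C. The 3 pups of a group were drawn at random from it, and their litters are not given, so any litter effect cannot be told apart from the diet.

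Interleukins are signalling proteins that leukocytes and stromal cells release to act on nearby cells. Most bind receptor chains that recruit Janus kinases, which phosphorylate STAT transcription factors, whereas the interleukin 1 and interleukin 17 families act through adaptor proteins on NF-kB. Families share chains: the common gamma chain Il2rg serves the receptors for interleukins 2, 4, 7, 9, 15 and 21, and Il6st (gp130) those for interleukins 6, 11 and 27. In lymph nodes, stromal cells make interleukin 7 and interleukin 33, which act on lymphocytes.

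Levels are quantile-normalized log2 intensities. The deposited array medians had run from 27.6 to 32.9 in A, from 19.3 to 30.9 in B, from 20.2 to 27 in C and from 34.3 to 38.5 in D. Array 3 of group D stood apart: its log2 values correlated at a mean r of 0.931 with group B and 0.930 with group C, against 0.896 with the other D arrays. The 9 smooth muscle markers, scored as their mean log2 level centred on all arrays, were at 2.27 and 2.32 in D1 and D2 but at -0.23 in D3, with 0.03 to 0.08 in A, -0.91 to -0.74 in B and -1.02 to -0.30 in C. All 10 T cell and all 7 B cell markers measured were above background in every array, as were all 14 of macrophages and dendritic cells. The ratio of the 3' to the 5' hexokinase probe set, a measure of RNA integrity, was 2.84 to 4.96 in A, 1.62 to 3.24 in B, 1.82 to 2.62 in C and 1.84 to 2.53 in D. For Gapdh it was 1.205 to 1.526 in A, 1.104 to 1.124 in B, 1.1 to 1.284 in C and 1.063 to 1.218 in D. For beta-actin it was 1.369 to 1.786 in A, 1.444 to 1.793 in B, 1.595 to 1.744 in C and 1.303 to 1.905 in D. The beta-actin ranges of all groups overlapped. The part of D3, of smooth muscle and of RNA integrity in the differences below was not tested beyond the values given. In whole tissue, fewer cells of a type and less RNA per cell cannot be told apart.

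Of the 50 genes, 30 (60%) were above background in every array, against 73.1% of all genes. Receptor chains were detected this way more often than ligands, at 17 of 21 against 10 of 23, with 3 of the 6 inhibitors. Il4, a ligand that drives antibody class switching, and Il11, a ligand that signals through gp130, were above background in no array. The other 18 genes were detected in some arrays, namely Il10, Il12a, Il12b, Il13, Il17f, Il17rc, Il1r2, Il1rl2, Il1rn, Il2, Il20rb, Il24, Il3, Il36b, Il36rn, Il5, Il5ra and Il6. The helper T cell cytokines Il2, Il4, Il5, Il10, Il13 and Il17f were therefore each below background in at least 1 array.

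In group A against group D, 7 of the 50 genes were lower (14%) and 7 higher (14%) at an adjusted p under 0.05 in limma. Over all genes 12.0% were lower and 16.0% higher in that comparison, so the share of interleukin genes called lay near the background and is no result about the family. On the deposited values without scaling the split was 5 lower and 0 higher, with 9.64% and 1.84% of all genes. Il16, Il18, Il1b, Il33, Il1rap, Il6st and Il22ra2 fell. Il34, Il2rb, Il3ra, Il4r, Il6r, Il27ra and Il18bp rose. Where arrays of genes picked by a test are said below not to overlap, this describes the values and adds no support. By role, 4 of 23 ligands fell and 1 rose, 2 of 21 receptor chains fell and 5 rose, and 1 of 6 inhibitors moved each way, but no receptor chain passed as higher on the deposited values. The median log2 difference was 0.06 over the 50 genes and 0.15 over all genes. In the interleukin 1 family 4 of 13 genes fell and 1 rose, while none of 5 interleukin 17 family genes passed either way.

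**Figure D1:**
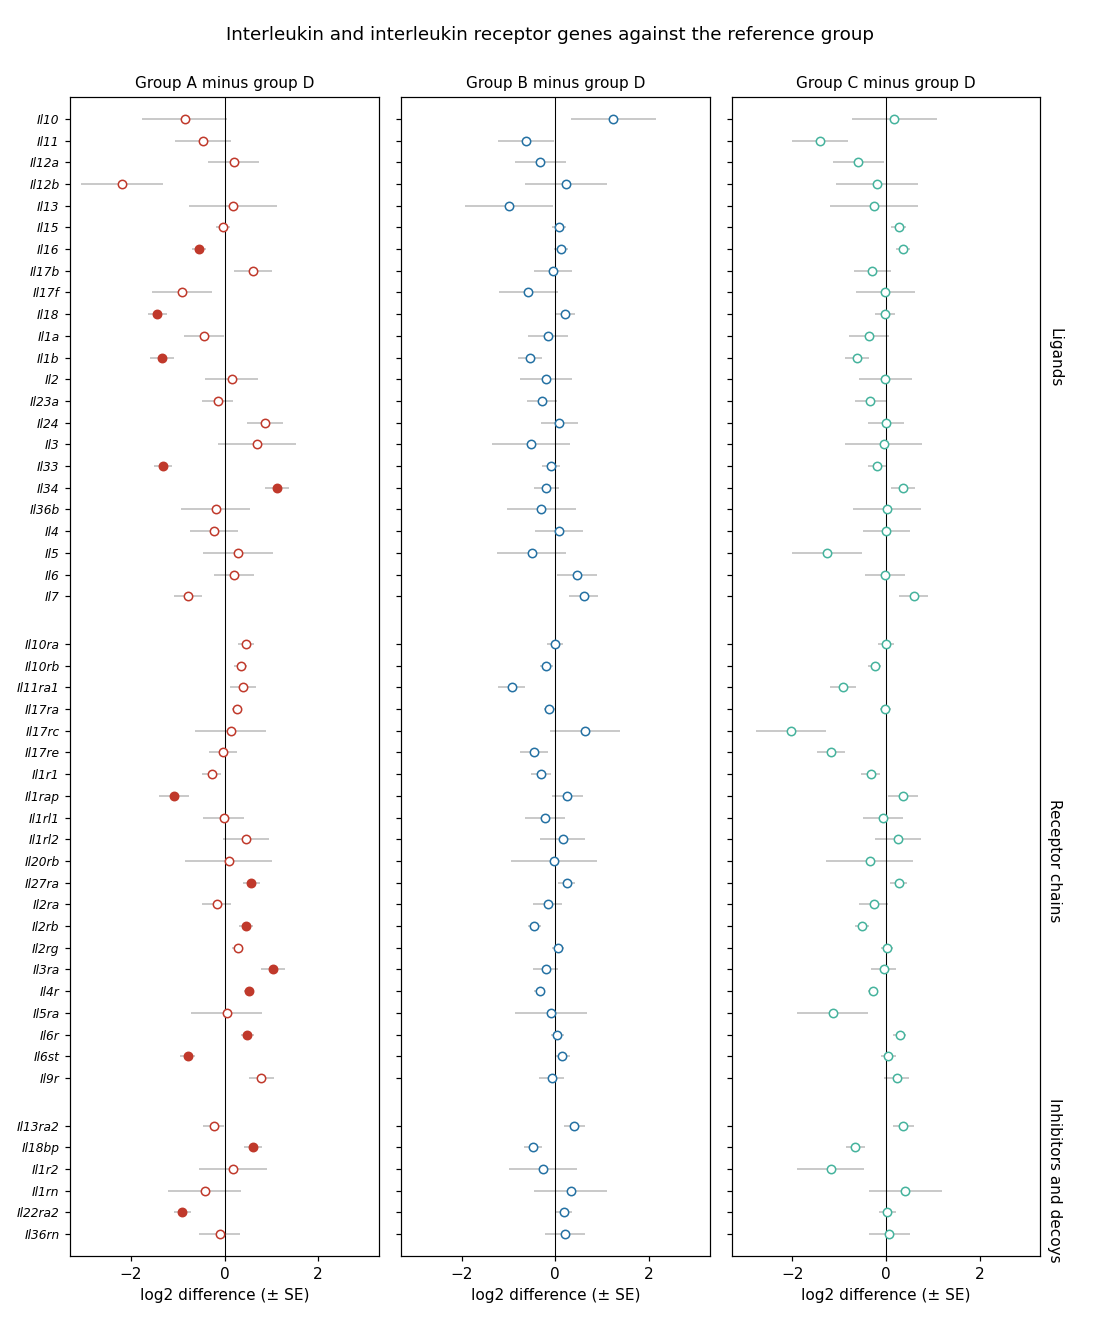
Log2 difference from group D (x axis, ± SE) of each of the 50 genes (y axis) in groups A, B and C, with 3 arrays per group; filled points passed an adjusted p under 0.05. In group A, 7 genes fell and 7 rose, and no point is filled for groups B or C; on the deposited values without scaling none of the 7 rises passed, and 12 genes were lower in C.

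Il18, Il1b and Il33, ligands of the interleukin 1 family, gave the largest falls in group A among the 30 of these genes above background in every array. Their promoters are shown with that of Il18bp, the inhibitor that binds interleukin 18. Il18bp was the 1 gene of the family that rose, a call lost in 15 of 20 alternatives. Il1rap, of the same family, also fell and is not shown. Each is the RefSeq window from 250 bases before to 50 bases after a transcription start in assembly GRCr8, read 5' to 3' along the gene. Capitals mark a TATA box (TATAAA), an AP-1 motif (TGANTCA) or a nuclear receptor half-site (AGGTCA). RefSeq gives Il33 a window at each of 2 starts.
Il33, first start, chr1:237115323-237115622, plus strand: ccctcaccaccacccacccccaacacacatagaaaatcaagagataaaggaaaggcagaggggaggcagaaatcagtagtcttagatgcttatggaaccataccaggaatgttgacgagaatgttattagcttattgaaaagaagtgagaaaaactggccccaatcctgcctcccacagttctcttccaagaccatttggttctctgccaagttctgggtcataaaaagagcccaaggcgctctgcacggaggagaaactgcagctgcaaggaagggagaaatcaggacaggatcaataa
Il33, second start, chr1:237134696-237134995, plus strand: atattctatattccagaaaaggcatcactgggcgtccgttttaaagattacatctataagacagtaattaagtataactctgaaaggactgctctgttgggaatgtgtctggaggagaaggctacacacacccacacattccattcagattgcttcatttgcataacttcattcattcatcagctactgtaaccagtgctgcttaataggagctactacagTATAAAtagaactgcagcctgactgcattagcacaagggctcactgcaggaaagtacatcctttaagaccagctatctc
Il18, chr8:59801822-59802121, plus strand: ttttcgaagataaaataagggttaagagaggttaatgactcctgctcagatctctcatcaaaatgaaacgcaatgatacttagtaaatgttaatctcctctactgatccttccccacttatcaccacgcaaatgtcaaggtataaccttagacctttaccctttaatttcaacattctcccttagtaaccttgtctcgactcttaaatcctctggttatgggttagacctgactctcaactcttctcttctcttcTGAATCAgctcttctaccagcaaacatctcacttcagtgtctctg
Il1b, chr3:137036532-137036831, minus strand: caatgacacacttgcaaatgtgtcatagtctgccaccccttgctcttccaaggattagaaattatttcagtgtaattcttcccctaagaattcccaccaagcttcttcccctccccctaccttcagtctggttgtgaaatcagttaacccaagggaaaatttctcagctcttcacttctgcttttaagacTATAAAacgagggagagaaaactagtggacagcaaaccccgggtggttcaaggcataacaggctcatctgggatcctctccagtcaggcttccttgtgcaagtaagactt
Il18bp, chr1:165786906-165787205, minus strand: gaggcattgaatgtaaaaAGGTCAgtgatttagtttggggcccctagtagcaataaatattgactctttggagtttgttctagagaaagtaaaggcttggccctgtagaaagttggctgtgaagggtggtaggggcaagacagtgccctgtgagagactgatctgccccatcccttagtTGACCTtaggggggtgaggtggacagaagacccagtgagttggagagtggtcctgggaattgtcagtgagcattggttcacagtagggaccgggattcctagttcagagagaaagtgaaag
The second start of Il33 and the start of Il1b had a TATA box upstream, Il18 had an AP-1 motif just after its start, and Il18bp had a pair of half-sites on opposite strands. These motifs and the STAT site TTCNNNGAA and the NF-kB motif were searched on both strands, each by itself, so that matches may overlap. Windows were found for 37 of the 50 genes, 39 windows in all. A TATA box lay in 20.5% of these and in 14.2% of all 33469 windows, an AP-1 motif in 12.8% and 7.33%, a half-site in 17.9% and 16.2%, the STAT site in 7.69% and 8.87%, and the NF-kB motif in 17.9% and 7.51%. The overlapping windows of Il1rap count separately among these. A match is a description of the letters and not a binding site.

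Il33 encodes an alarmin kept in the nuclei of stromal cells. Its log2 intensity was 8.73, 9.27 and 8.90 in A, 9.93, 10.56 and 10.08 in B, 10.18, 10.18 and 9.92 in C and 10.17, 10.09 and 10.60 in D. Every A array was below every other array. The difference from group D was -1.32 ± 0.19 (SE, adjusted p = 0.000455), a 2.49-fold lower level, and a further probe set for Il33 had a log2 difference of -2.18 (adjusted p = 2.22e-06). Groups B and C differed from D by -0.09 (adjusted p = 0.854) and -0.19 (adjusted p = 0.645). Among receptor chains for interleukin 33, Il1rl1 (ST2) ranged from 3.66 to 4.23 in group A and 3.37 to 4.60 in group D, with a difference of -0.02 ± 0.43 (SE, adjusted p = 0.983).

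Interleukin 18 is a ligand that promotes interferon gamma production and is cut to its active form by caspase 1. Il18 stood at 6.46, 6.39 and 6.82 in A, 8.0, 8.07 and 8.53 in B, 8.08, 8.08 and 7.74 in C and 8.38, 7.63 and 7.97 in D. The A arrays again lay below all 9 others, which overlapped one another. Group A differed from D by -1.44 ± 0.21 (SE, adjusted p = 0.000443), which is 2.71-fold lower. For its inhibitor Il18bp the values were 7.35, 7.26 and 7.14 in A, 6.09, 5.97 and 6.45 in B, 5.78, 6.01 and 6.18 in C and 7.0, 6.34 and 6.58 in D. Here the A arrays were the highest, and the B and C arrays lay under those of D, except for B3, which was within the range of D. Il18bp rose by 0.61 ± 0.20 (SE, adjusted p = 0.045) in group A and differed by -0.47 ± 0.20 (SE, adjusted p = 0.274) in group B and -0.65 ± 0.20 (SE, adjusted p = 0.172) in group C. The rise against D was lost in 15 of 20 alternatives, among them the fits without D2, D3, B1, B2 or any 1 of the A or C arrays, whereas the difference between group A and groups B and C, 1.17 ± 0.17 (SE, adjusted p = 0.000182), passed in all 20.

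Il1b, an inflammatory ligand of myeloid cells, was at 6.62, 5.80 and 6.02 in A, 7.17, 6.50 and 7.13 in B, 7.05, 7.08 and 6.46 in C and 7.64, 7.18 and 7.62 in D. Group D was highest, and neither the A, the B nor the C arrays reached it. The difference was -1.33 ± 0.26 (SE, adjusted p = 0.0031) in group A, -0.55 ± 0.26 (SE, adjusted p = 0.327) in group B and -0.62 ± 0.26 (SE, adjusted p = 0.243) in group C, so that the test was passed in group A and in neither of the others. Il1rap, the accessory chain shared by the receptors for interleukins 1 and 33, had values of 3.58, 3.57 and 3.84 in A, 5.33, 4.43 and 5.24 in B, 4.84, 5.41 and 5.06 in C and 4.99, 4.34 and 4.89 in D. Its A arrays formed a low cluster with no overlap, and it fell by 1.08 ± 0.33 (SE, adjusted p = 0.0332) on the log2 scale against D. A dimmer Il1rap probe set had a difference of -0.82 (adjusted p = 0.248), and the call was lost in 7 of 20 alternatives, among them the fits without any 1 of the A arrays, without D1 and without D3. With a floor of 32 the difference was 0, because all A and D values of Il1rap lay under that floor. Il1a, the other interleukin 1 ligand, differed by -0.44 ± 0.43 (SE, adjusted p = 0.546) and Il1r1, the signalling receptor chain, by -0.28 ± 0.20 (SE, adjusted p = 0.395). The decoy receptor Il1r2 and the receptor antagonist Il1rn were not above background in every array, and differed by 0.18 ± 0.72 (SE, adjusted p = 0.905) and -0.43 ± 0.79 (SE, adjusted p = 0.77).

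Il6st, the gp130 chain, read 9.10, 8.49 and 8.72 in A, 9.59, 9.78 and 9.72 in B, 9.81, 9.62 and 9.36 in C and 9.41, 9.74 and 9.51 in D. Its A arrays lay below all the others. It fell by 0.78 ± 0.16 (SE, adjusted p = 0.00429) on the log2 scale in group A, and its other 3 probe sets passed the test in the same direction with differences of -0.99, -0.81 and -1.87. On the deposited values the brightest probe set had a difference of -0.84 and missed the threshold (adjusted p = 0.0643, against 6.53e-05 to 0.0643 over all 20 alternatives). Il6r, which pairs with Il6st to bind interleukin 6, was at 8.46, 8.28 and 8.41 in A, 8.15, 7.93 and 7.75 in B, 8.14, 8.18 and 8.26 in C and 8.02, 7.61 and 8.07 in D, highest in group A. Its difference from D was 0.48 ± 0.14 (SE, adjusted p = 0.0287) and it was lost in 6 of 20 alternatives, among them the fits without A1, A3 or D2. Il27ra, the interleukin 27 receptor chain that also pairs with gp130, was at 7.64, 7.08 and 7.56 in group A and 6.86, 6.62 and 7.09 in group D. The ranges touched, since A2 lay just under D3. It rose by 0.57 ± 0.18 (SE, adjusted p = 0.0396), a call lost in 10 of 20 alternatives, among them the fits without A1, A3, B2, C1, D1 or D2. The ligand Il6 itself ranged from 3.37 to 4.39 in group A and 2.93 to 4.14 in group D and differed by 0.20 ± 0.43 (SE, adjusted p = 0.81).

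**Figure D2:**
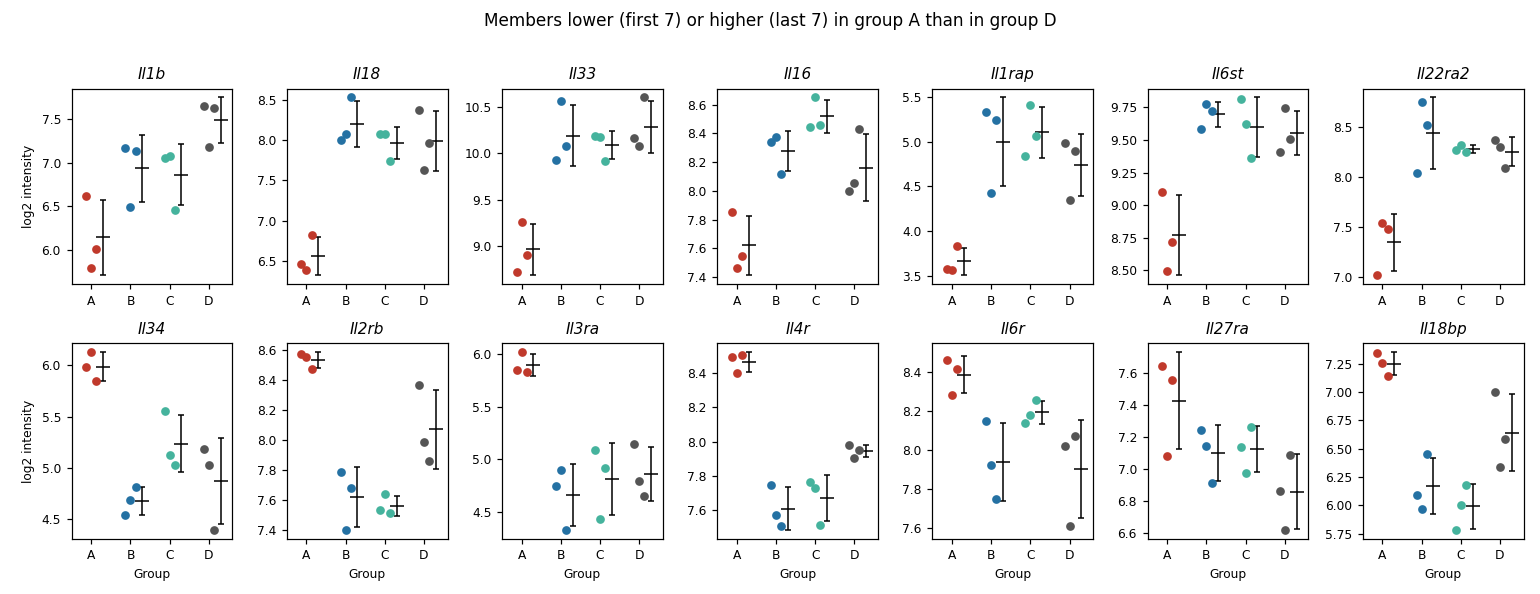
Log2 intensity in each array (y axis; each panel has its own range) by group (x axis) for the 14 genes that passed in group A against group D; points are arrays, bars mean ± SD of 3. The A arrays lie below all D arrays for the first 7 genes and above them for the last 7 except Il27ra, where A2 is under D3. The genes were picked by this same comparison, so the separation adds no support. No share of all genes without overlap was computed. On the deposited values without scaling none of the last 7 passed.

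Outside these families, Il16, a precursor whose secreted end attracts CD4+ cells, had 7.85, 7.46 and 7.54 in A, 8.34, 8.37 and 8.12 in B, 8.45, 8.65 and 8.46 in C and 8.0, 8.06 and 8.43 in D. The A arrays were lowest and did not overlap D. It fell by 0.54 ± 0.15 (SE, adjusted p = 0.0195) on the log2 scale, a call lost in 5 of 20 alternatives, among them the fits without A2 or A3. Il22ra2, a soluble decoy that binds interleukin 22, had 7.02, 7.54 and 7.49 in A, 8.04, 8.75 and 8.52 in B, 8.27, 8.32 and 8.25 in C and 8.37, 8.30 and 8.09 in D. Every A array was under every other array, with a difference from D of -0.90 ± 0.18 (SE, adjusted p = 0.00358) that passed in all 20 alternatives.

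Il34, a ligand of the Csf1 receptor, showed the largest rise in group A among the 14 genes. Its values were 5.99, 6.13 and 5.85 in A, 4.54, 4.69 and 4.82 in B, 5.55, 5.13 and 5.03 in C and 5.19, 5.03 and 4.40 in D. No other array reached the A arrays, and D3 was the lowest of all. The rise was 1.12 ± 0.26 (SE, adjusted p = 0.00885), or 2.17-fold, and was lost on the deposited values (0.86, adjusted p = 0.144, against 0.00155 to 0.144 over all 20 alternatives). Il3ra, the interleukin 3 binding chain, had 5.85, 6.02 and 5.83 in A, 4.75, 4.90 and 4.33 in B, 5.09, 4.43 and 4.92 in C and 5.15, 4.79 and 4.65 in D. Again the A arrays stood above the rest. It rose by 1.04 ± 0.26 (SE, adjusted p = 0.0148), a call lost on the deposited values and without A2, while Il3 itself, not above background in every array, differed by 0.69 ± 0.83 (SE, adjusted p = 0.632).

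Il4r and Il2rb lay above D in group A and under it in the gavaged groups. Il4r, the chain that binds interleukins 4 and 13, was at 8.49, 8.40 and 8.50 in A, 7.75, 7.58 and 7.51 in B, 7.77, 7.73 and 7.52 in C and 7.98, 7.91 and 7.95 in D. The groups fell into 3 tiers without overlap, with A highest, D between, and B and C lowest. The difference from D was 0.52 ± 0.11 (SE, adjusted p = 0.00544) in group A, -0.34 ± 0.11 (SE, adjusted p = 0.215) in group B and -0.27 ± 0.11 (SE, adjusted p = 0.232) in group C. Il2rb, shared by the receptors for interleukins 2 and 15, was at 8.57, 8.55 and 8.47 in A, 7.79, 7.40 and 7.68 in B, 7.53, 7.64 and 7.51 in C and 8.37, 7.98 and 7.86 in D. All A arrays were above those of D, and all B and C arrays were below them. Group A differed from D by 0.46 ± 0.14 (SE, adjusted p = 0.0384), group B by -0.45 ± 0.14 (SE, adjusted p = 0.213) and group C by -0.51 ± 0.14 (SE, adjusted p = 0.163). The A call was lost in 12 of 20 alternatives, including the fits without D2, without D3, without B3 and without any 1 of the A or C arrays. The common gamma chain Il2rg differed by 0.28 ± 0.13 (SE, adjusted p = 0.151) in group A and the interleukin 2 binding chain Il2ra by -0.17 ± 0.31 (SE, adjusted p = 0.773). Il15, which Il2rb also serves, ranged from 5.88 to 6.01 in group A and 5.82 to 6.13 in group D, with a difference of -0.04 ± 0.15 (SE, adjusted p = 0.914).

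Group A against groups B and C compared CLA through milk with CLA by gavage in suckling. The paper reports a lower plasma ratio of c9,t11 to t10,c12 in A pups than in B or C pups. Route and isomer ratio therefore cannot be told apart here. It also reports more plasma CLA in groups A and B than in C. Group C had no CLA in gestation and 3 weeks of it in all, against 5 weeks in A and B, so that between A and C the route and the gestational supply cannot be told apart. Here 10 of the 50 genes were lower (20%) and 11 higher (22%), against 16.9% and 31.6% of all genes. The share that was higher lay under the background and the share that was lower near it. On the deposited values the split was 4 lower and 15 higher, with 7.05% and 40.6% of all genes, and Il16, Il1b, Il22ra2, Il33, Il6st and Il13ra2 no longer passed as lower. The lower genes were the 7 that fell against D, together with Il7, Il12b and Il13ra2. Of the 11 higher genes, 5 had also risen against D (Il18bp, Il2rb, Il34, Il3ra, Il4r) and 6 had not passed there (Il10ra, Il10rb, Il11ra1, Il17ra, Il17re, Il9r). Receptor chains made up 9 of the 11, out of 21 measured. The median difference was 0.26 over the 50 genes and 0.32 over all genes. Il1b also lost this call without A2 and without A3, and Il1rap with a floor of 32. Both comparisons share the A arrays.

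Il7, the stromal ligand that keeps T cells alive, was at 5.16, 4.36 and 4.57 in A, 5.84, 6.12 and 6.31 in B, 6.21, 6.28 and 5.74 in C and 4.91, 5.47 and 6.06 in D. Its A arrays were below all B and C arrays but overlapped D, where D1 was under A1. Against groups B and C it fell by 1.38 ± 0.27 (SE, adjusted p = 0.00128) on the log2 scale, and against D the difference was -0.78 ± 0.31 (SE, adjusted p = 0.0965). A dimmer Il7 probe set did pass against D, at -1.40 (adjusted p = 0.0204). Il12b, the subunit shared by interleukins 12 and 23, was at 4.94, 0.26 and 4.39 in group A, 5.35 to 6.0 in B and 5.12 to 5.37 in C. The difference of -2.22 ± 0.76 (SE, adjusted p = 0.0357) rested on A2, which was below background, and was lost in 10 of 20 alternatives, among them the fits without A2 and without any 1 of the B or C arrays. The partner subunits Il12a and Il23a differed by 0.65 ± 0.47 (SE, adjusted p = 0.32) and 0.16 ± 0.28 (SE, adjusted p = 0.708). Il13ra2, a decoy for interleukin 13, had 7.04, 7.39 and 7.30 in group A and 7.85, 7.68 and 6.90 in group D, where D3 was the lowest array of all. Against groups B and C, in which every array was above those of A, it fell by 0.62 ± 0.20 (SE, adjusted p = 0.0245) on the log2 scale. That call was lost in 7 of 20 alternatives, among them the fits without A1, A3, B3 or C1 and the deposited values, over which the difference ran from -0.70 to -0.15 and the adjusted p from 0.00206 to 0.667. Without D3 it also passed against D (-0.52, adjusted p = 0.0469).

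**Figure D3:**
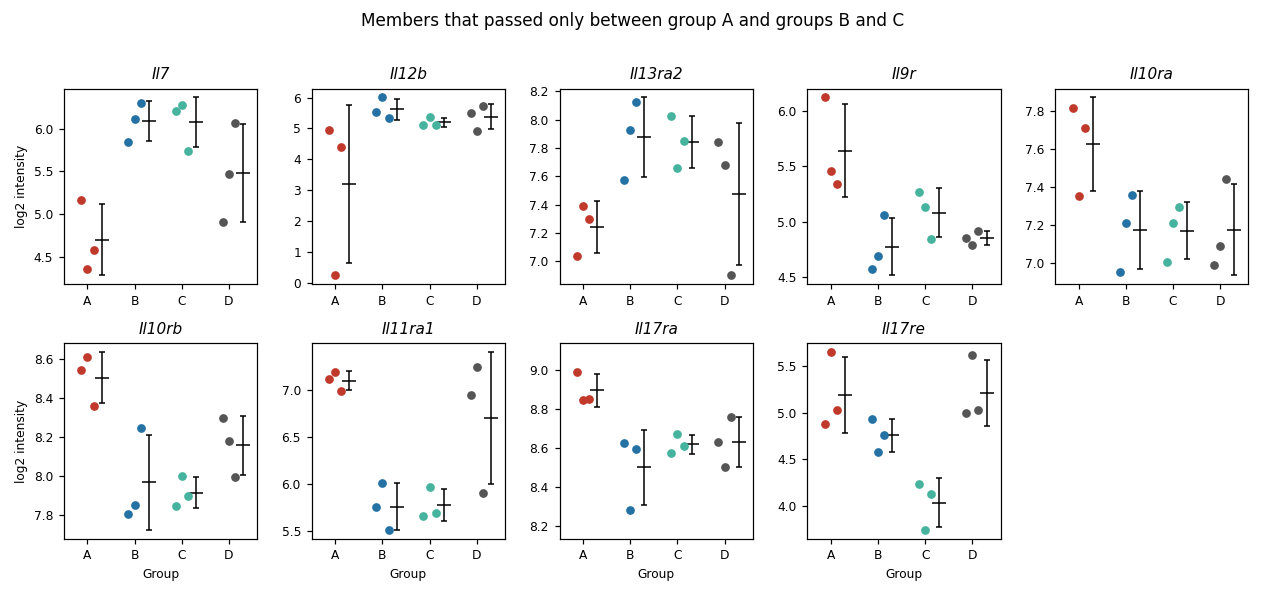
Log2 intensity in each array (y axis; each panel has its own range) by group (x axis) for the 9 genes that passed between group A and groups B and C but not between A and D; points are arrays, bars mean ± SD of 3. Il7 and Il13ra2 are lower in A than in every B and C array, Il12b shows A2 alone near 0, and Il11ra1 shows D3 with the B and C arrays.

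Il11ra1, the interleukin 11 binding chain, was at 7.12, 7.19 and 6.99 in A, 5.76, 6.01 and 5.52 in B, 5.67, 5.97 and 5.70 in C and 6.94, 7.24 and 5.91 in D. A, D1 and D2 formed a high cluster, and D3 lay with the B and C arrays. Against groups B and C, group A was higher by 1.33 ± 0.24 (SE, adjusted p = 0.000894), or 2.51-fold. Il10rb, a chain shared by the receptors for interleukins 10 and 22, was higher by 0.56 ± 0.12 (SE, adjusted p = 0.00227) with no overlap, at 8.36 to 8.61 in A against 7.81 to 8.25 in B and 7.85 to 8.0 in C. Its partner Il10ra was higher by 0.45 ± 0.15 (SE, adjusted p = 0.0285), but A2 lay within the range of B and a dimmer probe set differed by -0.24 (adjusted p = 0.728). Their ligand Il10 was above background in no array of groups A or D, in 2 of group B and in 1 of group C. Il17ra, which serves most interleukin 17 receptors, was higher by 0.34 ± 0.10 (SE, adjusted p = 0.0184), and Il9r, the interleukin 9 receptor chain, by 0.71 ± 0.23 (SE, adjusted p = 0.0273). Il17re, an epithelial partner of Il17ra, was higher by 0.79 ± 0.26 (SE, adjusted p = 0.0295) with overlapping arrays. Of 20 alternatives, 6 lost the call of Il10ra (without A1, A3, B1 or C1 among them), 6 that of Il17re (without A2, A3, B2 or C2), 5 that of Il9r (without A1, B1, B2 or C3) and 2 that of Il17ra (without A1).

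**Figure D4:**
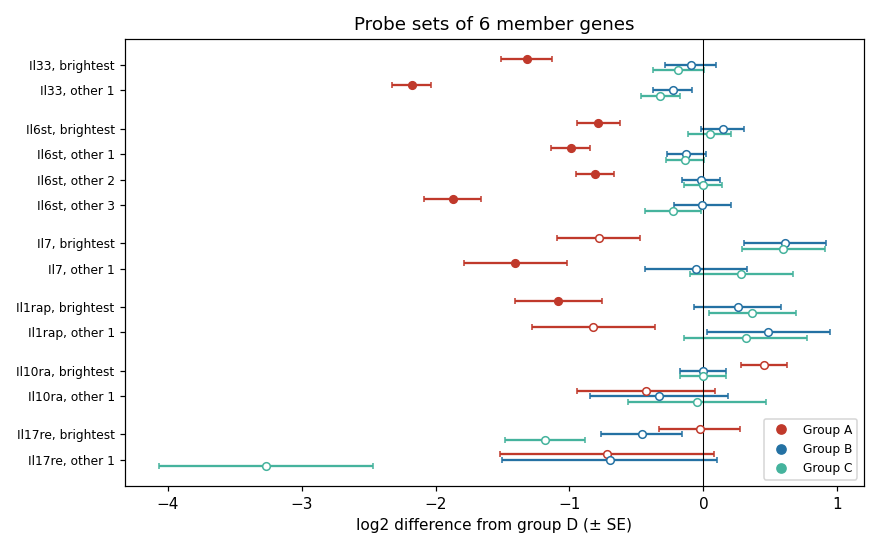
Log2 difference from group D (x axis, ± SE) of each probe set (y axis) of 6 genes that have more than 1, in groups A, B and C; filled points passed an adjusted p under 0.05. Both Il33 and all 4 Il6st probe sets are lower in group A, while those of Il10ra point in opposite directions.

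In group B against group D, CLA in gestation and by gavage, none of the 50 genes passed lower or higher, against 0.0141% and 0.00703% of all genes. At an unadjusted p under 0.05, 4 were lower and 0 higher, where 10.5% and 6.47% of all genes were. In group C against D, CLA by gavage alone, none passed either, against 0.0352% and 0.00703% of all genes. Without scaling of the deposited values, 12 of the 50 were lower in group C (Il10rb, Il11, Il11ra1, Il17ra, Il17rc, Il17re, Il18bp, Il1b, Il1r1, Il2rb, Il33 and Il4r) and none higher, with 35% and 0.0352% of all genes, while group B stayed at none. The median log2 difference of all genes in group C was -0.80 on the deposited values and -0.12 after quantile normalization. At an unadjusted p under 0.05, 8 were lower and 1 higher, with 12.2% and 7.42% of all genes. The 5 detected genes of smallest unadjusted p were Il11ra1, Il18bp, Il1b, Il2rb and Il4r in group B and Il11ra1, Il17re, Il18bp, Il2rb and Il4r in group C. All of these were lower than D by their means, at -0.94 (adjusted p = 0.211) for Il11ra1 in group B and -1.18 (adjusted p = 0.148) for Il17re in group C. Il17re was at 4.23, 3.74 and 4.12 in group C and 5.0, 5.62 and 5.02 in group D, without overlap. The medians of the 50 genes were -0.09 in B and -0.04 in C, against -0.11 and -0.12 over all genes.

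The counts after quantile normalization also turned on D3. Without it, 2 of the 50 genes were lower (Il11ra1, Il2rb) and 1 higher (Il7) in group B, with 12.8% of all genes lower and 7.15% higher. In group C, 6 were lower (Il11ra1, Il17rc, Il17re, Il18bp, Il1r1, Il2rb) and 2 higher (Il16, Il7), with 15.0% and 8.03% of all genes. Against the remaining D arrays Il11ra1 differed by -1.34 ± 0.18 (SE, adjusted p = 0.000364) in group B and -1.32 ± 0.18 (SE, adjusted p = 0.000365) in group C. Over all 20 alternatives its adjusted p ran from 0.000364 to 0.578 in group B and from 0.000365 to 0.529 in group C. D1 and D2 are also the arrays with the high smooth muscle score, and the part of that tissue in these differences was not tested. In group A without D3, 7 genes were lower and 6 higher, with 13.4% and 14.6% of all genes; Il13ra2 and Il10ra joined while Il1rap, Il18bp and Il2rb dropped out.

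Between groups B and C, which differ in CLA during gestation, no gene of the 50 passed in limma, and 0% of all genes were lower and 0% higher. At an unadjusted p under 0.05, 0 were lower and 2 higher, with 1.93% and 1.96% of all genes. These were Il17rc and Il17re. Il17rc, which pairs with Il17ra to bind interleukins 17A and 17F, was at 4.46, 4.42 and 4.04 in group B, above background in every array, and at 2.23, 0.48 and 2.23 in group C, below it in every array. With values below background raised to background, its mean level was 3.12-fold higher in group B. Il17rc did not pass in limma, which used the values without that step. There the difference was larger, at 2.66 ± 0.75 on the log2 scale (SE, adjusted p = 0.802). In group D it was at 4.08, 4.87 and 2.07, with D3 at the level of group C. For Il17re the difference was 0.72 ± 0.30 (SE, adjusted p = 1).

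The remaining 7 genes, Il1rl2, Il20rb, Il24, Il36b, Il36rn, Il5 and Il5ra, were above background in some arrays only and passed in no comparison. Likewise Il2, Il13, Il17b and Il17f, ligands for chains described above, passed in none. Il17b, above background in every array, differed from D by 0.61 in group A, and Il2, above it in all 3 arrays of A and 2 of D, by 0.15. Il13 was above background in 1 array of A and 1 of D, and Il17f in none of A and 1 of D, so no difference is given for them.

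Genes that process or carry interleukin signals were counted from lists. Their counts in group A against D stand beside 12.0% lower and 16.0% higher over all genes. Of 8 genes for maturation of interleukins 1 and 18, 3 fell in group A against D and none rose. Casp1, the protease that cuts both ligands, was at 6.79, 7.10 and 7.10 in group A and 8.37, 8.16 and 8.79 in group D. The arrays did not overlap, and the difference was -1.45 ± 0.16 (SE, adjusted p = 6.59e-05). Casp4 differed by -1.24 ± 0.19 (SE, adjusted p = 0.000631) and Casp8 by -0.93 ± 0.15 (SE, adjusted p = 0.00105), whereas the adaptor Pycard differed by 0.36 ± 0.15 (SE, adjusted p = 0.108) and did not pass. Among 21 genes of interleukin 1 receptor signalling 2 fell (the kinase Map3k7, -0.91, and Tab3, -1.06) and 8 rose, among them the adaptor Myd88 (0.55), the NF-kB subunits Nfkb1 (0.68), Nfkb2 (0.60), Rela (0.69) and Relb (0.92), and the inhibitory receptor Sigirr (0.60). The median difference was 0.02 over the maturation list and 0.30 over the signalling list, beside 0.15 over all genes. Without D3 both lists kept these counts, where 13.4% of all genes were lower and 14.6% higher. On the deposited values the maturation list also had 3 lower and 0 higher, but of the signalling genes Relb alone passed as higher, with Map3k7 and Tab3 lower. With arrays centred on the 75th percentile, the maturation list had 3 lower and 2 higher, Pycard and Gsdmd. The signalling list then had 2 lower and 11 higher, where 11.9% of all genes were lower and 18% higher.

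Of 10 Janus kinases and STAT factors, 3 fell and 2 rose in group A, against the same shares of all genes. Jak2, used by the interleukin 3 and interleukin 12 receptors, was at 4.92, 4.08 and 5.43 in group A and 7.0, 6.57 and 7.69 in group D, a difference of -2.28 ± 0.31 (SE, adjusted p = 0.00031). No A array reached any other array. Jak1, which serves gp130 and gamma chain receptors, differed by -0.64 ± 0.09 (SE, adjusted p = 0.00043) and Stat4, which acts downstream of interleukin 12, by -1.43 ± 0.19 (SE, adjusted p = 0.000247). Jak3, the partner of the common gamma chain, rose by 0.65 ± 0.14 (SE, adjusted p = 0.00493) and Stat5a by 0.50 ± 0.13 (SE, adjusted p = 0.0148). Among 15 inhibitors of such signalling 2 fell, the phosphatases Ptpn2 (-1.09) and Ptprc (-1.03), and 2 rose, Pias3 (1.31) and Pias4 (0.98). Of 8 genes in interleukin 17 signalling 2 rose, Traf3 (0.41) and Cebpb (0.76). Of 18 partner chains and related ligands 1 fell, Cntf (-1.24), and 5 rose, Csf2ra (0.82), Clcf1 (1.96), Ebi3 (0.96), Crlf2 (0.83) and Ifngr2 (0.81). Of 7 transcription factors of helper T cells Rora fell (-2.79), and Gata3 (1.00), Bcl6 (0.66) and Maf (0.73) rose. On the deposited values Jak2, Stat4, Ptpn2, Ptprc, Cntf and Rora passed as lower and Pias3 as higher, and no other Janus kinase, STAT, inhibitor, interleukin 17 signalling, partner chain or transcription factor gene listed did. In groups B and C against D no gene of these 7 lists passed, and in B the same held on the deposited values. In C, however, the deposited values gave 9 of 21 interleukin 1 signalling genes lower, 6 of 15 inhibitors, 6 of 18 partner chains, 5 of 10 Janus kinases and STAT factors, 4 of 8 interleukin 17 signalling genes, 2 of 8 maturation genes and 1 of 7 transcription factors, with none higher, where 35% of all genes were lower. Without D3, interleukin 1 receptor signalling had 4 genes lower and 5 higher, in B as in C, while none of the Janus kinases and STAT factors passed. The other 5 lists then had 0 to 1 genes lower and 0 to 3 higher in B, and 0 to 2 lower and 1 to 4 higher in C. Over all genes 12.8% were lower and 7.15% higher in B without D3, and 15.0% and 8.03% in C.

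**Figure D5:**
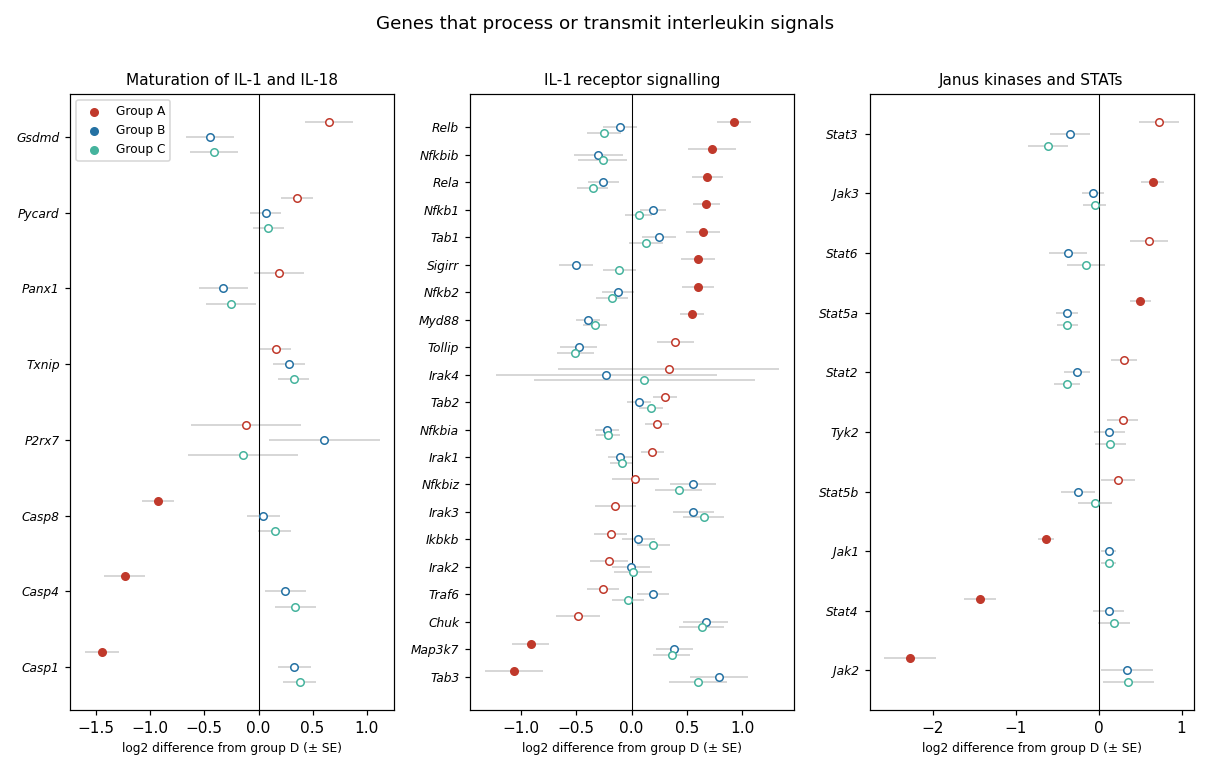
Log2 difference from group D (x axis, ± SE) of genes (y axis) in 3 lists, in groups A, B and C; filled points passed an adjusted p under 0.05. In group A, Casp1, Casp4 and Casp8 are lower, as are Jak1, Jak2 and Stat4, while 8 genes of interleukin 1 receptor signalling are higher, and no point is filled for groups B or C; on the deposited values Relb alone of these 8 passed, and in C 9 interleukin 1 signalling, 5 Janus kinase and STAT and 2 maturation genes were lower.

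Markers of cells that make or read these signals moved unevenly in group A, where 12.0% of all genes were lower and 16.0% higher. Of the markers measured, T cells had 1 of 10 lower and 1 higher, B cells 1 of 7 lower and 3 higher, macrophages and dendritic cells 1 of 14 lower and 4 higher, neutrophils 0 of 7 lower and 4 higher, and plasma cells 0 of 7 lower and 4 higher. Mast cell and basophil markers gave 0 of 8 either way. Fibroblastic reticular stroma, a known source of Il7 and Il33, had 2 of 12 lower (Cxcl13, -0.94, and Pdgfra, -0.62) and 2 higher (Pdgfrb, 0.77, and Madcam1, 0.88), with a mean score of 0.15 to 0.31 in A, -0.26 to -0.21 in B, -0.30 to -0.23 in C and -0.19 to 0.58 in D. Endothelium had 2 of 11 lower and 1 higher, mesothelium and keratins 4 of 7 lower, smooth muscle 3 of 9 lower and adipocytes 2 of 8 lower, with no marker higher in the last 3. Several of these splits changed without D3. Macrophages and dendritic cells then had 2 markers lower and 1 higher in group A, stroma 5 lower and 1 higher, smooth muscle 7 of 9 lower and mesothelium and keratins 5 of 7 lower. In that fit 13.4% of all genes were lower and 14.6% higher in A. In both B and C 6 of 12 stromal markers were then lower and 0 higher, where none had passed with D3, and smooth muscle had 9 and 8 of 9 lower. Over all genes 12.8% were then lower and 7.15% higher in B, and 15.0% and 8.03% in C. With D3, 0.0141% of all genes were lower in B and 0.0352% in C. The T cell score was -0.09 to 0.17 in group A and -0.12 to 0.03 in group D, and the neutrophil score 0.51 to 1.02 and -0.64 to -0.46. With D3, Krt8 alone among these markers passed in B and in C after quantile normalization, as lower. In B the deposited values gave Krt8, Krt19, Actg2, Myh11, Cnn1, Col1a1, Col1a2, Vwf and Sdc1 as lower and no marker as higher. Over all genes 0.499% were lower and 0% higher in B on those values. On the deposited values no T cell or macrophage marker passed as higher in A, and 2 plasma cell and 3 neutrophil markers did. In group C they gave 9 of 9 smooth muscle, 7 of 8 adipocyte and 9 of 12 stromal markers lower. Mesothelium and keratins had 7 of 7 lower, macrophages and dendritic cells 9 of 14, endothelium 7 of 11 and T cells 4 of 10. The other lists had 0 to 2 lower. No marker passed as higher in C, where 35% of all genes were lower. After quantile normalization, stroma had 1 of 12 markers lower and 7 higher in group A against groups B and C. Over all genes 16.9% were lower and 31.6% higher in that comparison, in which Il7 and Il33 were lower. The median difference there was 0.81 over the stromal markers and 0.32 over all genes. The other lists are not given for it. The part of cell composition in the interleukin differences was not tested.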

How the data were processed

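The 12 arrays each held RNA from the mesenteric lymph nodes of 1 pup. The authors processed the scans with MAS5, and the deposited file gives linear signal intensities for 31099 probe sets without scaling between arrays. Their own lists came from GeneSpring, scaled to the reference median and filtered on p and on fold, with no test named. Here 30 zeros took the smallest positive value, log2 values were quantile normalized over all arrays, and intensities under 1 were raised to 1, which shrinks fold changes of dim genes. After 57 control probe sets were left out, 31042 were tested.

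Probe sets with 1 symbol (20826) gave 14217 genes, each by its brightest probe set. The 50 members have 62 probe sets, and all 50 match a gene in rat assembly GRCr8. Groups were compared with limma 3.58.1 in R 4.3.3 (1 mean per group over 12 arrays, moderated two-sided test with a variance trend, Benjamini-Hochberg over all probe sets in each of 5 comparisons), after it was tested on simulated data. A probe set was above background where it exceeded the 95th percentile of 27 spike probe sets whose targets were absent. Precision is limited by having 3 arrays per group: an exact permutation p cannot go below 0.1, and p-values rest on the spread shared across probe sets. Replicate numbers were not taken as pairing pups. Deviations of same-numbered arrays correlated at -0.02 to 0.08, and those of other-numbered arrays at -0.09 to 0.04. These ranges overlap, so the check cannot decide whether the numbers carry a pairing.

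Members, lists and the rule for named genes were chosen with earlier results of these data known, and quantile normalization likewise. The rule names every member at an adjusted p under 0.05, the 5 detected members of smallest unadjusted p in groups B and C against D, members in the study's additional files, and their ligands or receptor chains. Alternatives were the deposited values, centring on the 75th percentile, a higher floor (32), dropping the dimmest 40%, no variance trend, only the groups compared, the mean of a gene's probe sets, 2-fold rules, a replicate block and leaving out each array.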

Additional observations from a re-analysis of the deposited data

Results flagged for a closer look

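For 21 of the 50 genes the difference from group D in group A departed from its mean in groups B and C (adjusted p under 0.05 in limma). This is the comparison of group A with groups B and C, in which group D cancels out. Of these, 10 were lower and 11 higher, or 20% and 22%, against 16.9% and 31.6% of all genes, so the share lay near or under the background. The following values are these differences on the log2 scale. Among ligands they were -2.22 for Il12b, -1.53 for Il18, -1.38 for Il7, -1.18 for Il33, -0.78 for Il16, -0.75 for Il1b and 1.03 for Il34. Among receptor chains they were -1.39 for Il1rap, -0.88 for Il6st, 1.33 for Il11ra1, 1.16 for Il3ra, 0.94 for Il2rb, 0.82 for Il4r, 0.79 for Il17re, 0.71 for Il9r, 0.56 for Il10rb, 0.45 for Il10ra and 0.34 for Il17ra. Among inhibitors they were -1.01 for Il22ra2, -0.62 for Il13ra2 and 1.17 for Il18bp. The value for Il12b rests on array A2, and its call was lost in 10 of 20 alternatives, that of Il13ra2 in 7, those of Il10ra and Il17re in 6 each and that of Il9r in 5.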

How the results depend on the processing

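Single genes were recomputed only in comparisons where they had passed. In groups B and C against D, the 5 detected genes of smallest unadjusted p were recomputed. Of these values, 540 leaving out 1 array and 360 under other alternatives, none changed direction. Since they were picked by p in these same data, this says nothing about the direction of the other genes. Il1rap in A against D had a difference of 0 with a floor of 32, which did not count as a change. The deposited values shift the median of all genes by -0.02, -0.65 and -0.80 in groups A, B and C against D and by 0.73 for A against B and C, where quantile normalization gave 0.15, -0.11, -0.12 and 0.32. On them 0 members were higher in A against D, 12 were lower in C against D (35% of all genes), and 4 were lower in A against B and C. With only the groups compared, 3 were higher in A against D. At an unadjusted p and 2-fold the counts were 2 higher in A and 3 lower in C against D, 6 lower and 4 higher in A against B and C, and 1 higher in B against C. At an adjusted p and 2-fold they were 4 lower and 2 higher in A against D, and 6 lower and 4 higher in A against B and C. Leaving out 1 array gave 5 to 7 lower and 3 to 7 higher in A against D, with 3 higher without A1, A3 or D2 and 4 without A2 or C1. It gave 0 to 2 lower and 0 to 1 higher in B, and 0 to 6 lower and 0 to 2 higher in C, all above 0 only without D3. For A against B and C it gave 8 to 10 lower and 8 to 12 higher. With a replicate block, 7 were lower and 6 higher in A against D and 10 and 11 in A against B and C, and Il18bp lost its call against D. The causes of these shifts were not tested. No share of all genes was computed for the 2-fold rules, only the groups compared, a replicate block or leaving out arrays other than D3. Those counts are therefore no result about the family. Il18, Il33, Il1b and Il22ra2 passed against D under all 20 alternatives in which a single gene was recomputed.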
